A study of Mus musculus with 4 samples.

Results

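The genes described here encode the nuclear pore complex and the receptors that carry cargo through it. They were chosen by symbol: Nup followed by a digit, Kpna, Kpnb, Xpo, Ipo or Tnpo at its start, or one of a short list of further pore and Ran cycle genes such as Rae1, Gle1, Aaas, Ran and Rcc1. This gave 54 of the 18193 genes named on the array, measured by 150 of its 45037 probe sets that are not controls. Cytoplasmic RNA was measured on 4 Affymetrix arrays in Neuro2A, an established mouse neuroblastoma line. In 1 group (4.5SH KD, n = 2) the line had been depleted of 4.5SH, a short noncoding transcript found in rodents and related to B1 repeats, and in the other (control, n = 2) it had not. Per the labels' protocols, antisense oligonucleotides were transfected at 30 nM, cells were lysed in CSK buffer, and 200 ng of poly(A)+ RNA from the supernatant went into cRNA. The study looked for genes with an antisense B1 element that 4.5SH acts on, and the control's oligonucleotide is not named in those protocols. No probe set was named for 4.5SH, so its depletion was not checked. Effects of its loss and other effects of the oligonucleotides cannot be told apart.

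Nuclear pores are large protein assemblies set in the nuclear envelope. A scaffold of Y-shaped complexes and an inner ring is held in the membrane by transmembrane nucleoporins. It carries nucleoporins rich in phenylalanine-glycine (FG) repeats, which line the channel, the nuclear basket and the cytoplasmic face. Importins bind cargo in the cytoplasm and release it in the nucleus when they meet Ran bound to GTP, and exportins take up cargo together with that form of Ran. Rcc1 loads Ran with GTP on chromatin, and Rangap1, with Ranbp1 and Ranbp2, drives GTP hydrolysis on the cytoplasmic side, so the state of Ran sets the direction of transport.

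Values are array signals as deposited, analysed as log2(signal + 16), and a difference is the knockdown minus the control on that scale with the standard error of the limma fit. The added 16 makes a difference understate the change of a dim gene. Where a gene had several tested probe sets the brightest stood for it, and genes whose mean signal reached 16.9 were tested. All p-values are two-sided and Benjamini-Hochberg adjusted over all tested genes (limma), with 0.05 as the threshold. With 2 arrays against 2, an exact permutation test cannot go below p = 0.333, so each p-value depends on the spread that limma pools over genes. The labels call the replicates biological, and no source says whether they came from separate cultures, so a p-value measures the spread between these arrays. In bulk RNA of this kind, fewer cells that express a gene and less RNA per cell cannot be told apart. Only the cytoplasmic fraction was measured, so less of a transcript in the whole cell and less of it in that fraction cannot be told apart either. Of the 54 genes, 53 were tested. Kpna7, an importin alpha of oocytes and early embryos, was not, because its signals were 2.0 and 2.1 after knockdown against 7.3 and 7.8 in the control. Of the 150 probe sets, 120 passed the filter. Tpr and Nutf2 had no probe set with 1 symbol and were not analysed here.

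Many transcripts of the pore scaffold and its cytoplasmic face, and 3 of the 6 exportins, were lower after depletion of 4.5SH. Some importin, transportin and nucleoporin transcripts were higher. In all, 25 of the 53 genes fell (47.2%), against 35.2% of the 11814 genes tested, and 8 rose (15.1%), against 9.84%. The larger share of falls was not seen when only the brightest 25% of probe sets were tested. There 48.1% of 52 of these genes fell, against 48.2% of 7140 genes, and 17.3% rose, against 12.6%. Differences ran from -0.91 for Nup210 to 0.72 for Kpna4, so none reached a doubling or a halving on the log2(signal + 16) scale of the deposited values. With the arrays scaled on their hybridization spike-ins, Nup210 differed by -1.02. The median difference of the 53 genes was -0.17, and that of all tested genes was also -0.17. In each of the 33 called genes, both knockdown signals lay on the same side of both control signals. That was also so for genes that did not pass, such as Ipo8 and Ranbp1, so it adds no support to the calls.

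**Figure D1:**
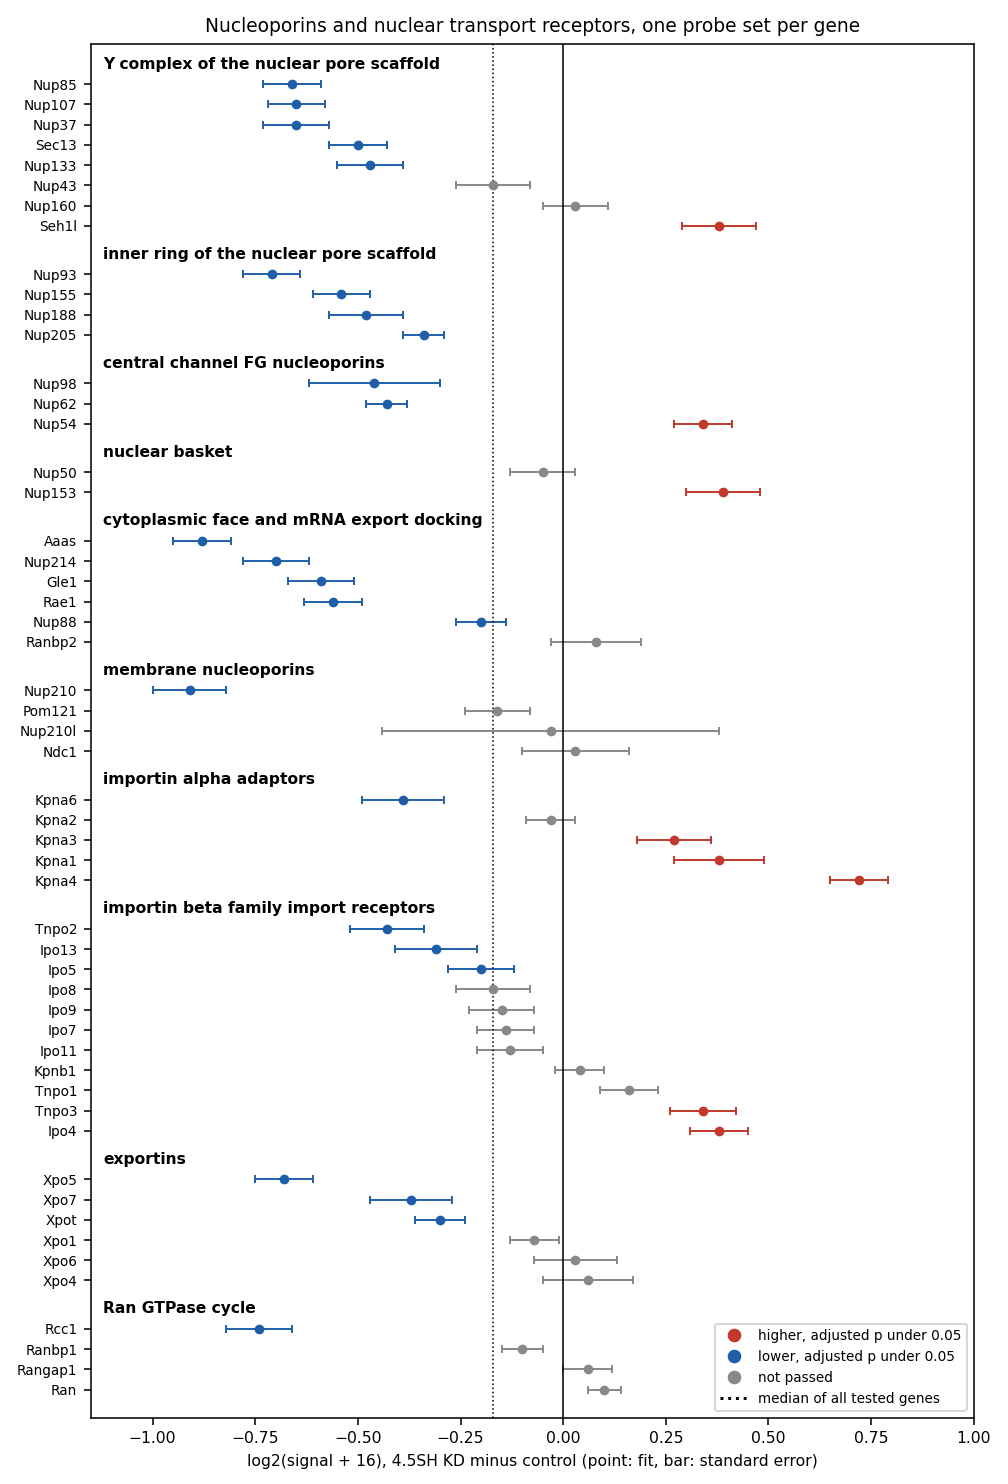
Difference in log2(signal + 16), 4.5SH KD minus control, for the 53 tested genes grouped by role. Points are limma estimates and bars their standard errors (2 against 2 arrays), colours mark genes that passed an adjusted p of 0.05, and the dotted line is the median of all tested genes (-0.17). All 4 inner ring genes and 5 of 6 genes of the cytoplasmic face were called lower, and 3 of 5 importin alphas higher. Of all tested genes 35.2% were called lower and 9.84% higher.

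The arrays differed in overall brightness along with the groups. The 2% trimmed mean signal was 128 and 132 for the 4.5SH KD arrays and 149 and 143 for the control arrays, while medians were 17.1, 18.2, 18.0 and 18.3 in that order. Log2 profiles correlated at 0.9879 within the knockdown, 0.9871 within the control and 0.9780 to 0.9789 between the groups. The line expressed its lineage factors: Phox2a read 1068.6 to 1267.8 and Hand2 1419.2 to 1630.8. Of 13 listed sympathetic lineage markers 9 were tested, and their list summed to 5118.5 and 5200.0 in the knockdown against 5484.8 and 5607.3 in the control. Th and Gata3, also on that list, lay below the filter. Neuronal markers summed to 7900.6 and 8072.4 against 8896.2 and 8647.6. Fibroblast markers summed to 87.2 to 111.0, epithelial ones to 52.0 to 99.6, and hepatocyte ones to 81.2 and 64.1 against 183.5 and 142.7. White blood cell markers summed to 413.9 and 418.7 against 734.3 and 806.0, most of it the lysosomal gene Cd68 (338.1 and 341.5 against 619.0 and 720.7), while their defining marker Ptprc read 0.3 to 8.1. The brightest probe sets of the 4 listed nuclear RNAs summed to 107.9 and 80.1 against 505.3 and 466.5. Malat1 differed by -2.50 at its brightest probe set (adjusted p = 1.72e-09), although of its 5 tested probe sets 2 were lower, 1 higher and 2 did not pass. Neat1 differed by -0.72 (adjusted p = 0.018). The part of array brightness and of nuclear RNA in the differences below was not tested.

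The largest rises belonged to Kpna4 and Nup153, and the largest falls to Nup210 and Aaas. Kpna4, importin alpha 3, binds classical nuclear localization signals and hands its cargo to importin beta. Nup153 is an FG nucleoporin of the nuclear basket. Nup210 is a transmembrane nucleoporin whose bulk lies in the lumen of the nuclear envelope. Aaas encodes aladin, a WD repeat protein of the pore that is mutated in triple A syndrome. RefSeq promoter sequences upstream of these genes are shown so that the genes that moved most in each direction can be set side by side. Each runs over 250 bases up to the annotated start, read 5′ to 3′ on the gene's strand (build GRCm38.p6). Capitals mark matches to the motifs searched, on either strand: the CCAAT box (CCAAT), the GC box (GGGCGG), the ETS core (CCGGAAG), the NRF1 core (GCATGCGC), the TATA box (TATAAA) and the E-box (CACGTG), none of which contains another.
Kpna4, chr3:69127093-69127342, minus strand: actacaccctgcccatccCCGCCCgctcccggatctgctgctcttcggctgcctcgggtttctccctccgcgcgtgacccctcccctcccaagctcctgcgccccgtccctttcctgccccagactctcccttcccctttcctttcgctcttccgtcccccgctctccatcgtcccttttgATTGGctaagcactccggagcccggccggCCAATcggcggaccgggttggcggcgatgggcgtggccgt
Nup153, chr13:46727850-46728099, minus strand: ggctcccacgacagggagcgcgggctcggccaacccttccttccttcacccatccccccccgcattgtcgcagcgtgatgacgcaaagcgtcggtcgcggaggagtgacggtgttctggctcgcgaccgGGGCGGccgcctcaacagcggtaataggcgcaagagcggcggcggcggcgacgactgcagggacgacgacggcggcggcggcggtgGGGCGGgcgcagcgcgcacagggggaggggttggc
Nup210, chr6:91116827-91117076, minus strand: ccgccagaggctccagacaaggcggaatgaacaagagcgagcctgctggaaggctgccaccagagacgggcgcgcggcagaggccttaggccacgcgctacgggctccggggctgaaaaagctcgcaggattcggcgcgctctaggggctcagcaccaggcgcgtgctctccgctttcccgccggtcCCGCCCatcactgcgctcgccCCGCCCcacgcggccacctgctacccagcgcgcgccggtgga
Aaas, chr15:102350760-102351009, minus strand: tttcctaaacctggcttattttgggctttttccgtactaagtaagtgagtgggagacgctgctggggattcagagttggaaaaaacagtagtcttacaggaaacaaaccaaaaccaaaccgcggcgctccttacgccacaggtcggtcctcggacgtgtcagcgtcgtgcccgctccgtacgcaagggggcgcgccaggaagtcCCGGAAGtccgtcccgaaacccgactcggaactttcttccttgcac
The Kpna4 stretch held 2 CCAAT boxes and 1 GC box, and its GC content was 68.4%. Nup153 had 2 GC boxes and 73.2% GC, and Nup210 also had 2 GC boxes, with 71.2% GC. The Aaas stretch held 1 ETS core and was 55.2% GC. None of the 4 held the letters searched for the TATA box.

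Promoter windows of 300 bases (250 before the start and 50 after it) were listed for 45 of the 54 genes, in 52 windows. A GC box was found in 65.4% of these windows, against 35.7% of all 32851 listed promoters. The ETS core stood in 21.2% against 8.86%, the NRF1 core in 13.5% against 2.71%, and the E-box in 17.3% against 7.15%. Windows with a CCAAT box made up 44.2% against 37.4%, and those with a TATA box 9.62% against 13.6%. By call, a GC box was present in 19 of the 22 genes that fell, 2 of the 5 that rose and 11 of the 17 that did not pass. The ETS core was present in 7 of those 22, 3 of the 5 and 0 of the 17. Such matches describe letters in a window, and neither binding nor promoter activity was measured. The background was every listed promoter, whether or not its gene was expressed here. These shares therefore do not set the genes apart from other expressed ones.

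Of the 8 tested genes of the Y complex, the outer scaffold of the pore, 5 fell, 1 rose and 2 did not pass. Their median difference was -0.49. Of all tested genes 35.2% fell and 9.84% rose. With only the brightest 25% of probe sets these shares were 48.2% and 12.6%. Counts for this group and the groups below, each of few genes, are to be read beside these shares. Nup85 read 671.6 and 700.7 in the knockdown against 1111.7 and 1073.5 in the control. Its difference was -0.66 ± 0.07 (adjusted p = 1.33e-06). Nup107, the partner of Nup133 at the stem of the Y, read 770.2 and 805.0 against 1277.0 and 1212.4, a difference of -0.65 ± 0.07 (adjusted p = 1.17e-06). The groups were well apart for both genes, with the higher knockdown array far below the lower control array. Nup37, which sits on an arm of the Y, differed by -0.65, Sec13, which is shared with the COPII coat of secretory vesicles, by -0.50, and Nup133 by -0.47, and all 3 passed. Seh1l, which also belongs to the GATOR2 complex that regulates mTORC1, went the other way. It read 628.8 and 678.0 in the knockdown against 537.8 and 461.8 in the control, a difference of 0.38 ± 0.09 (adjusted p = 0.00213). Only 1 of its 6 tested probe sets passed, and with the _x_at and _s_at probe sets left out it differed by 0.07 (adjusted p = 0.548). Nup43 (-0.17 ± 0.09) and Nup160 (0.03 ± 0.08) did not pass, and Nup160 passed as higher with quantile scaling of the arrays (0.22, adjusted p = 0.0266).

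All 4 tested genes of the inner ring, which joins the scaffold to the membrane and to the channel, fell, with a median of -0.51. Of all tested genes 35.2% fell. Nup93, which anchors the channel nucleoporins, read 528.8 and 518.7 against 862.5 and 866.0 in the control. Its difference was -0.71 ± 0.07 (adjusted p = 1.15e-06). Nup155 read 680.7 and 719.5 against 1026.6 and 1028.3, which gave -0.54 ± 0.07 (adjusted p = 1.05e-05). Replicates of Nup93 and Nup155 lay close together in both groups. Nup188 differed by -0.48 and its paralogue Nup205 by -0.34, and both passed. A second, dimmer probe set of Nup205 read 91.9 and 120.3 against 81.5 and 70.1 and did not pass (0.40 ± 0.16). The mean over both probe sets differed by 0.03 (adjusted p = 0.775), so the direction of Nup205 depends on the probe set. A second probe set of Nup155 differed by -0.02 and did not pass.

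Of the 3 FG nucleoporins of the central channel, Nup62 and Nup98 fell and Nup54 rose. Nup62, which forms the channel's core with Nup54 and Nup58, read 2075.8 and 2115.1 in the knockdown against 2884.8 and 2758.1, a difference of -0.43 ± 0.05 (adjusted p = 6.95e-06). The fall of Nup62 was seen at 4 of its 5 tested probe sets. Nup54 read 1421.5 and 1509.9 against 1069.2 and 1254.3, a difference of 0.34 ± 0.07 (adjusted p = 0.00153). That rise rested on 1 of 5 tested probe sets, an _x_at one, and without _x_at and _s_at probe sets Nup54 differed by 0.03 (adjusted p = 0.792). Nup98, whose transcript also encodes the Y complex subunit Nup96, read 257.5 and 253.1 against 462.3 and 274.3, with a difference of -0.46 ± 0.16 (adjusted p = 0.0243). Control replicate 1 stood far above the other arrays there, and without it Nup98 differed by -0.10 (adjusted p = 0.592). Leaving out knockdown replicate 1 or 2 also ended the call, at adjusted p = 0.0909 and 0.105. Nup98's other tested probe set was also lower (-0.39), with signals of 212.6 and 232.3 against 306.3 and 285.8 (adjusted p = 0.00996 among probe sets). Nup58 is encoded by Nupl1, outside the chosen symbols, which fell by 0.22 (adjusted p = 0.0209).

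In the nuclear basket, Nup153 rose and Nup50 did not pass. Nup153 read 575.6 and 617.1 in the knockdown against 480.6 and 422.6 in the control. The difference was 0.39 ± 0.09 (adjusted p = 0.0016), seen at 1 of its 2 tested probe sets. Its mean over both probe sets did not pass (0.24, adjusted p = 0.0562). Nup50, which helps importin alpha release its cargo, read 583.3 and 613.1 against 634.2 and 602.4, and its groups overlapped (-0.05 ± 0.08).

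On the cytoplasmic face, where exported mRNA is remodelled, 5 of 6 genes fell, beside 35.2% of all tested genes, and the median was -0.58. Aaas read 761.3 and 766.2 in the knockdown against 1420.3 and 1412.6 in the control. The difference of -0.88 ± 0.07 had the smallest p of the whole set (adjusted p = 3.52e-08). Nup214, an FG nucleoporin that binds Xpo1 and the export helicase Ddx19, read 471.4 and 466.6 against 797.8 and 751.6, a difference of -0.70 ± 0.08 (adjusted p = 1.9e-06). For both genes replicates differed little and the groups lay far apart. Gle1, which activates Ddx19, differed by -0.59, and Rae1, an mRNA export factor that binds Nup98, by -0.56, and both passed. Gle1 was lower at 2 of 4 tested probe sets, and its mean over them did not pass (-0.16, adjusted p = 0.248). Nup88, the partner of Nup214, fell by 0.20 (adjusted p = 0.0107). It did not pass without knockdown replicate 1 (adjusted p = 0.0686), without control replicate 1 (adjusted p = 0.0635) or with quantile scaling (-0.03). Ranbp2, the large filament protein with SUMO ligase activity, read 369.6 and 410.5 against 422.2 and 318.8, and its groups overlapped.

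Among the membrane nucleoporins Nup210 fell and the other 3 did not pass. Nup210 read 284.7 and 308.1 in the knockdown against 550.0 and 589.7, a difference of -0.91 ± 0.09 (adjusted p = 5.79e-07). It was measured by 1 tested probe set. Pom121 differed by -0.16 ± 0.08 and Ndc1 by 0.03 ± 0.13. Pom121 passed as lower without control replicate 2 (-0.23, adjusted p = 0.0374). Nup210l, a paralogue of Nup210, read 3.5 and 36.5 against 5.9 and 32.8, and its standard error was 0.41.

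**Figure D2:**
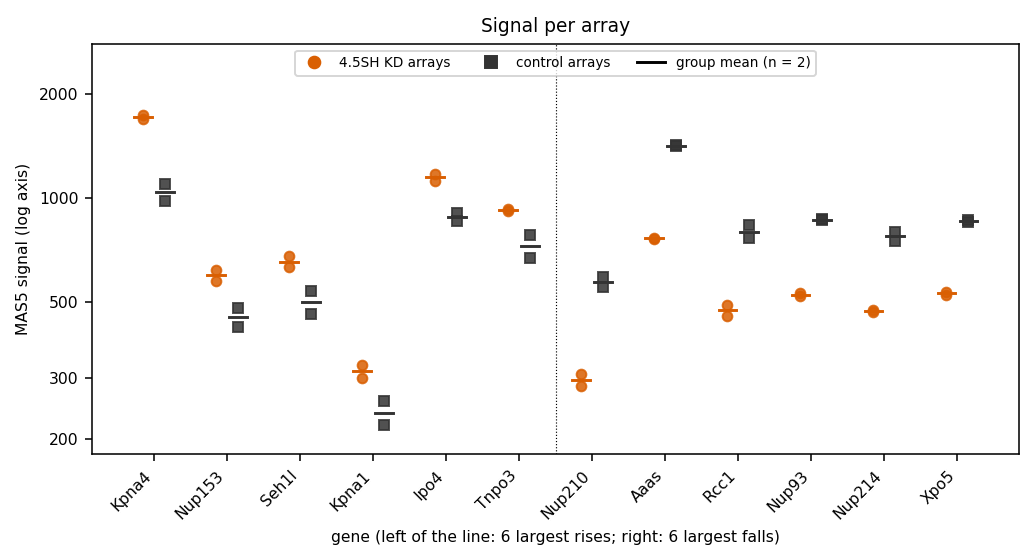
Signal on each array (log axis) for the 6 called genes with the largest rises, left of the dotted line, and the 6 with the largest falls, right of it. Circles are the 2 knockdown arrays, squares the 2 control arrays and lines the group means. In all 12 genes the groups do not overlap, which also holds for some genes that did not pass.

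Of the 5 tested importin alphas, the adaptors between classical localization signals and importin beta, 3 rose and 1 fell. Of all tested genes 9.84% rose and 35.2% fell. Kpna4 read 1690.9 and 1743.7 in the knockdown against 1097.2 and 981.7 in the control, a difference of 0.72 ± 0.07 (adjusted p = 3.58e-07). A dimmer probe set of Kpna4 read 51.8 and 55.5 against 38.1 and 41.0 and did not pass (0.33 ± 0.18). Kpna1 read 300.3 and 327.2 against 257.0 and 219.3, a difference of 0.38 ± 0.11 (adjusted p = 0.00783). This gene, importin alpha 5, was higher at 4 of its 5 tested probe sets, by 0.38 to 0.62. At its brightest probe set the call was lost without knockdown replicate 2 (adjusted p = 0.0837) and without control replicate 2 (adjusted p = 0.0708). Kpna3, the closest relative of Kpna4, rose by 0.27 (adjusted p = 0.0279), and 1 of its 3 tested probe sets passed. The call of Kpna3 was lost without knockdown replicate 1, knockdown replicate 2 or control replicate 2 (adjusted p = 0.0682, 0.146 and 0.131). It was also lost with scaling on the hybridization spike-ins (0.16). Kpna6, a close relative of Kpna1, read 216.1 and 208.5 against 280.4 and 284.6, a difference of -0.39 ± 0.10 (adjusted p = 0.00487). The groups were clearly apart for Kpna6, but with quantile scaling it no longer passed (-0.21, adjusted p = 0.0909). Its second tested probe set differed by -0.04 with overlapping groups, and the mean of both did not pass (-0.21, adjusted p = 0.146). Kpna2, the importin alpha of proliferating cells, read 2891.6 and 3158.0 against 3002.0 and 3158.3, with overlapping groups.

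The 11 tested import receptors of the importin beta family moved both ways: 2 rose, 3 fell and 6 did not pass, with a median of -0.14. Ipo4, a receptor for histones and ribosomal proteins, read 1121.2 and 1171.9 in the knockdown against 855.0 and 904.6 in the control. Its difference was 0.38 ± 0.07 (adjusted p = 0.000282), and its second tested probe set (0.21) did not pass. Tnpo3, which imports serine- and arginine-rich splicing factors, read 915.4 and 927.0 against 671.3 and 779.2, a difference of 0.34 ± 0.08 (adjusted p = 0.00206). Its 3 tested probe sets were all higher, by 0.32 to 0.60. The call of Tnpo3 was lost without the intensity trend (adjusted p = 0.0597) and with spike-in scaling (0.23, adjusted p = 0.0513). Tnpo2 went the other way, with 383.7 and 355.0 against 534.0 and 471.0, a difference of -0.43 ± 0.09 (adjusted p = 0.00117). Only 1 of its 3 tested probe sets passed. Its paralogue Tnpo1, transportin 1, which imports hnRNP proteins, read 1347.6 and 1477.6 against 1252.0 and 1263.2 and narrowly missed the threshold (0.16 ± 0.07, adjusted p = 0.0514). Tnpo1 passed as higher without knockdown replicate 1 (adjusted p = 0.0352) and with quantile scaling (adjusted p = 0.000941). The difference between Tnpo2 and Tnpo3, or Tnpo1, was itself not tested.

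Ipo13 and Ipo5 also fell, with less support. Ipo13, which carries cargo in both directions, differed by -0.31 (adjusted p = 0.0164), and did not pass without knockdown replicate 1 (adjusted p = 0.108), without control replicate 1 (adjusted p = 0.105) or with quantile scaling (-0.13). Ipo5, a receptor for ribosomal proteins and histones, differed by -0.20 (adjusted p = 0.0469). Without control replicate 1 it differed by -0.10 (adjusted p = 0.435), and it did not pass without knockdown replicate 1 or 2 either (adjusted p = 0.237 and 0.0708). Its second tested probe set differed by 0.18 and did not pass. Ipo7 (-0.14), Ipo8 (-0.17), Ipo9 (-0.15) and Ipo11 (-0.13) did not pass, and all 4 passed as lower with spike-in scaling.

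Of the 6 exportins, 3 fell and 3 did not pass. Of all tested genes 35.2% fell, and 48.2% when only the brightest 25% of probe sets were tested. With quantile scaling 1 exportin was lower, against 22.7% of all tested genes. Xpo5, which exports precursor microRNAs, read 524.2 and 534.9 in the knockdown against 851.4 and 862.9 in the control. Its difference was -0.68 ± 0.07 (adjusted p = 1.73e-06), with replicates close together and groups far apart at this probe set. A second tested probe set of Xpo5 read 262.9 and 314.6 against 373.9 and 326.9 and did not pass (-0.27 ± 0.11). Xpo7, a receptor of broad specificity, read 252.2 and 273.4 against 322.6 and 364.5, a difference of -0.37 ± 0.10 (adjusted p = 0.00702). It did not pass without knockdown replicate 1 (adjusted p = 0.0691), without control replicate 2 (adjusted p = 0.0634) or with quantile scaling (-0.18). Of its 3 tested probe sets only this one was lower, another differed by 0.26, and their mean differed by -0.10 (adjusted p = 0.529). Xpot, the exporter of transfer RNA, differed by -0.30 (adjusted p = 0.0005), and by -0.13 with quantile scaling, where it did not pass (adjusted p = 0.0712). Xpo4 (0.06), an exporter of the translation factor eIF5A, Xpo6 (0.03), the exporter of actin, and Xpo1 (-0.07) did not pass at their brightest probe sets.

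Of the 4 genes of the Ran cycle only Rcc1 passed. Rcc1, the chromatin-bound exchange factor that loads Ran with GTP, read 454.3 and 489.3 in the knockdown against 832.3 and 764.7. Its difference was -0.74 ± 0.08 (adjusted p = 1.71e-06), after Nup210 and Aaas the largest fall of the 53 genes. Ran itself was among the brightest signals, with 6824.9 and 7224.9 against 6683.5 and 6410.6, a difference of 0.10 ± 0.04 (adjusted p = 0.0704). Without control replicate 1 Ran passed as higher (0.13, adjusted p = 0.0283). Rangap1, which stimulates GTP hydrolysis by Ran, differed by 0.06 ± 0.06, and Ranbp1, its coactivator, by -0.10 ± 0.05.

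Probe sets of 1 gene did not always move together. In the fit over all 22525 tested probe sets, 38 of the 120 tested probe sets of these genes were lower (31.7%), against 25.8% of all, and 21 were higher (17.5%), against 9.76%. Of the 35 genes with more than 1 tested probe set, 4 passed at every one and in 1 direction: Nup133, Nup85 and Nup98 lower, Tnpo3 higher. Nup133 was lower by 0.47 to 0.65 at its 4 probe sets, and the second probe set of Nup85 differed by -0.86. Among the genes that fell, 11 had only 1 tested probe set, so no such comparison could be made.

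Ran was the gene whose probe sets passed in opposite directions. Of its 5 tested probe sets, 4 end in _x_at, a suffix for probes that can also bind other transcripts. The second of these read 5840.1 and 6193.2 in the knockdown against 5042.8 and 4829.0 in the control (0.28 ± 0.05, adjusted p = 0.000426 among probe sets). Another read 6945.0 and 7436.0 against 6248.2 and 6337.1 (0.19 ± 0.05, adjusted p = 0.005), and a further one differed by 0.13 (adjusted p = 0.0416). The probe set of Ran without that suffix read 987.2 and 1000.8 against 1315.3 and 1226.2, and was lower (-0.35 ± 0.07, adjusted p = 0.00129). With _x_at and _s_at probe sets left out, Ran therefore counted as lower.

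In 6 genes the brightest probe set did not pass and another one did: Kpnb1, Xpo1, Nup50, Pom121, Ranbp2 and Ran. Kpnb1, importin beta itself, read 2678.5 and 2875.7 against 2781.5 and 2623.5 at its brightest probe set (0.04 ± 0.06). Its other 3 tested probe sets were all higher, by 0.38, 0.48 and 0.72. The last of these read 623.0 and 682.8 in the knockdown against 372.1 and 409.5 in the control (adjusted p = 3.71e-05 among probe sets), and the mean over all 4 passed as higher (0.41, adjusted p = 0.000616). Xpo1, the main exporter of proteins with leucine-rich export signals, read 2018.7 and 2067.9 against 2211.1 and 2072.0 at its brightest probe set. A second one read 1072.8 and 1152.9 against 1837.5 and 1656.4 and was lower (-0.64 ± 0.07, adjusted p = 1.42e-05), as was a dim one near the filter (10.9 and 3.6 against 31.5 and 24.2). Averaged over its 3 probe sets, Xpo1 passed as lower (-0.55, adjusted p = 0.000184). Ranbp2 was higher at its second probe set (0.34, adjusted p = 0.0273), Nup50 at 1 of 3 (0.23, adjusted p = 0.0452), and Pom121 was lower at its second (-0.39, adjusted p = 0.0192). The part of a transcript that each probe set reads was not analysed here.

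**Figure D3:**
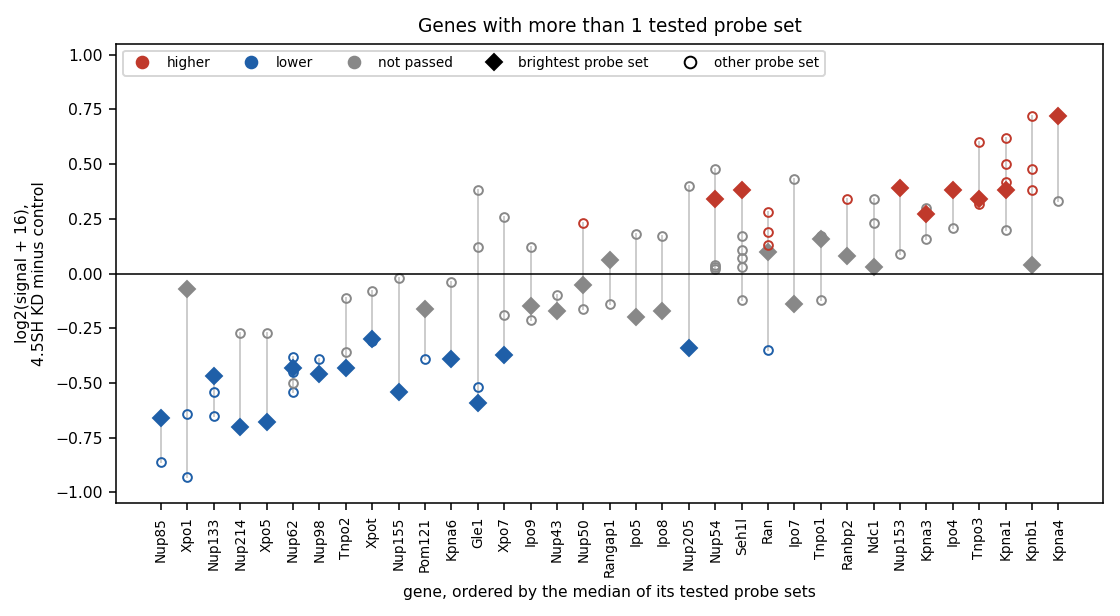
Difference in log2(signal + 16), 4.5SH KD minus control, at every tested probe set of the 35 genes with more than 1, joined by a line per gene and ordered by the gene's median. Diamonds are the brightest probe set, circles the others, and colours mark the call in the fit over probe sets. Ran has probe sets called in both directions, while Xpo1 and Kpnb1 have a grey diamond beside coloured circles.

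The counts depended on how the arrays were scaled and tested. Quantile scaling moved the median difference of all tested genes from -0.17 to -0.04, and called 17.7% of them higher and 22.7% lower. Under it 13 of the 53 genes were higher (24.5%) and 18 lower (34%), and their median was 0.01. The 18 had all been lower on the deposited scale as well. Lost calls were those of Xpo7, Ipo5, Xpot, Kpna6, Ipo13, Nup98 and Nup88. The 8 genes higher on the deposited scale stayed higher, and Ran, Tnpo1, Kpnb1, Nup160 and Rangap1 joined them. Scaling on 9 hybridization spike-in probe sets moved the median of all genes the other way, to -0.28. It called 5 of the 53 genes higher (9.43%), against 5.69% of all, and 32 lower (60.4%), against 44.8%. Without the intensity trend 3 were higher (5.66%), against 7.04% of all, and 20 lower (37.7%), against 27.4%. With the mean of each gene's probe sets 5 were higher (9.43%), against 9.12%, and 22 lower (41.5%), against 31.5%. The share of rises was thus close to that of all genes in both of these settings. Calls lost without the trend were those of Kpna1, Kpna3, Nup54, Seh1l and Tnpo3 among the rises and of Ipo13, Ipo5, Nup88, Nup98 and Xpot among the falls.

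By group, the call of the inner ring (4 of 4 lower) was the same under the deposited, quantile and spike-in scales. Over all tested genes the share lower under these scales was 35.2%, 22.7% and 44.8%, and counts by group are to be read beside it. The Y complex had 5, 5 and 6 genes lower under these scales in that order, and the cytoplasmic face 5, 4 and 5. Exportins went from 3 lower to 1 with quantile scaling, and the importin beta family from 3 lower to 1 with quantile scaling and 7 with spike-in scaling. Importin alphas had 3, 3 and 2 genes higher. Under the deposited scale and all 16 alternatives that measured them, 16 genes stayed lower: Aaas, Nup107, Nup133, Nup155, Nup188, Nup210, Nup214, Nup37, Nup62, Nup85, Nup93, Rae1, Rcc1, Sec13, Tnpo2 and Xpo5. Only Ipo4 and Kpna4 stayed higher under all of them. Among these stable calls, at least 1 other tested probe set of Ipo4, Kpna4, Nup155, Nup214, Nup62, Tnpo2 and Xpo5 did not pass.

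**Figure D4:**
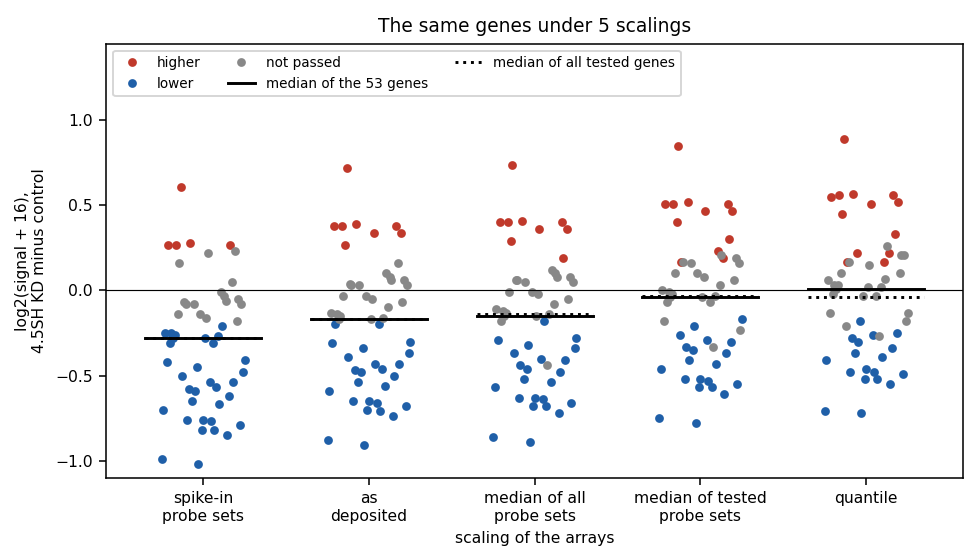
Difference in log2(signal + 16), 4.5SH KD minus control, of the 53 genes under 5 ways of scaling the arrays, 1 point a gene, coloured by its call. Solid lines are the median of the 53 genes and dotted lines that of all tested genes. The members' median moves from -0.28 with spike-in scaling to 0.01 with quantile scaling, and follows the median of all genes.

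Other genes of nuclear transport and the nuclear envelope, from a list of 35, were read in the same fit. Of the 32 with a probe set of 1 symbol, all tested, 16 fell (50%, against 35.2% of all tested genes), 6 rose (18.8%, against 9.84%) and 10 did not pass. Among the brightest 25% of probe sets the shares lay closer to those of all genes. There 51.7% of 29 partners fell, against 48.2% of all, and 13.8% rose, against 12.6%. The median of the 32 was -0.26, beside -0.17 for all tested genes. With quantile scaling 9 were lower and 9 higher (28.1% each, against 22.7% and 17.7%), and without knockdown replicate 2 the number higher was 3. Nxt2, a cofactor of the mRNA export receptor Nxf1, read 83.0 and 96.7 in the knockdown against 36.2 and 39.7 in the control, a difference of 0.97 ± 0.17 (adjusted p = 0.000175). Nxf1 itself differed by -0.37 ± 0.08 (adjusted p = 0.00128), and its other cofactor Nxt1 by -0.12, which did not pass. Ranbp6, a relative of Ipo5, read 94.7 and 122.0 against 74.4 and 54.5 (0.63 ± 0.17, adjusted p = 0.00532). Without knockdown replicate 2 that gene did not pass (adjusted p = 0.0994). Of the mRNA export factors, Pcid2 read 350.9 and 385.8 against 722.4 and 611.1 (-0.83 ± 0.09, adjusted p = 2.38e-06), and Mcm3ap, its partner in the TREX-2 complex, differed by -0.57 ± 0.11 (adjusted p = 0.000308). Ranbp10, a scaffold protein that binds Ran, read 204.5 and 232.2 against 367.6 and 363.0 and was lower (-0.70 ± 0.10, adjusted p = 2.56e-05).

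Of the inner nuclear membrane genes on the same list, Sun1, Sun2, Nemp1, Emd and Tor1aip1 were lower, and Lbr, the lamin B receptor, did not pass (0.02 ± 0.08). Sun1, which links lamins to the cytoskeleton across the envelope, read 283.8 and 303.5 in the knockdown against 560.3 and 550.8 (-0.88 ± 0.09, adjusted p = 6.24e-07). Nemp1 read 69.4 and 65.2 against 145.7 and 130.3 (-0.89 ± 0.14, adjusted p = 6.86e-05), and Emd, emerin, 717.0 and 688.0 against 1056.9 and 1049.3 (-0.57 ± 0.07, adjusted p = 5.29e-06). For Sun1, Nemp1 and Emd alike, both knockdown arrays were far below both control arrays. Ahctf1, the Elys protein that seeds pore assembly on chromatin and binds the Y complex, rose by 0.37 ± 0.08 (adjusted p = 0.00102). Cse1l, the exportin that returns importin alpha to the cytoplasm, differed by -0.37 ± 0.07 (adjusted p = 0.000406).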

How the data were processed

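Mouse Affymetrix arrays were hybridised with cytoplasmic RNA of Neuro2A cells, 2 for 4.5SH KD and 2 for control. The deposited values are intensities on a linear scale, 1 signal per probe set made with MAS5, per the submitters' processing notes. No source used here gives its version, scaling target or filters. The number of arrays limits the precision.

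Probe sets were named from the platform annotation of GEO where it gave 1 symbol (34945 of 45037; 932 had several and 9160 none), and genes were taken as members by symbol, which their current RefSeq symbols bore out for all 150. A further 3 probe sets carry a member with another symbol and were not used. Values were taken as log2(signal + 16) with no further scaling. Probe sets at or above the median of the mean signal over all 4 arrays entered the fit (limma 3.58.1, R 4.3.3, lmFit and eBayes with an intensity trend, Benjamini-Hochberg at 0.05), once with 1 probe set a gene (16.7 total degrees of freedom) and once over all probe sets (13.6). Promoters came from the RefSeq table of GRCm38.p6. Python 3.11.15 with matplotlib 3.10.9 made the plots.

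The members, the lists of roles, partners and markers, and the tests were chosen with earlier results of these data known. By rule, every member is named. Signals per array are given for the 2 called members of each role with the largest differences, the 6 largest rises and falls, members whose probe sets passed in opposite directions, and Ran. Partners are named from a called difference of 0.5, and a few others named for their role were chosen after their values were seen. The main fit did not pair the arrays by replicate number. Deviations of same-numbered arrays correlated at 0.0071, and no source says whether those arrays were handled together.

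Alternatives changed the pseudocount (1 or 64), the scaling (quantile, centring on all or on the tested probe sets, spike-ins), the filter (none, or the brightest 25%), the intensity trend and the probe sets (their mean per gene, or no _x_at and _s_at ones), added a replicate block, or left out each array in turn. The fit was tested on simulated data before use.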

Additional observations from a re-analysis of the deposited data

How the results depend on the processing

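Over 61 member and partner genes and 16 alternatives, 846 values kept their direction and their side of the threshold, 59 lost the call and 26 gained one. A further 38 changed sign without passing, and 2 changed sign with a call in only 1 of the settings compared. Nup205, lower in the main setting, differed by 0.03 with the mean of its probe sets and did not pass. Ran, not called in the main setting, was lower without _x_at and _s_at probe sets (-0.35). Members higher numbered 8, and 5 with the mean of probe sets, 3 without the intensity trend, 13 with quantile scaling and 5 with spike-in scaling, which was added after the data were seen. The shares of all genes called higher in those 4 settings were 9.12%, 7.04%, 17.7% and 5.69%, against 9.84% in the main setting. With 1 array left out, the median of all tested genes ran from -0.19 to -0.14, and the number of members called changed as well. Partners lower numbered 16 (50%, against 35.2% of all genes), and 9 with quantile scaling (28.1%, against 22.7%). Partners higher numbered 6 (18.8%, against 9.84%), and 9 with quantile scaling (28.1%, against 17.7%). The partners' median of -0.26 became -0.26 to -0.21 without 1 array, and their calls changed as well. Member probe sets higher numbered 21, but 11 with no filter, 7 without the trend, 37 with quantile scaling, 10 with spike-in scaling, 13 without _x_at and _s_at probe sets and 12 to 18 without 1 array. Those lower numbered 38, but 25 without the trend and 31 to 37 without 1 array. The members' median of -0.17 became -0.04 when centred on the tested probe sets, -0.10 with the mean of probe sets, 0.01 with quantile scaling, -0.28 with spike-in scaling and -0.21 to -0.13 without 1 array. The cause of these shifts was not tested. Of all tested probe sets, 9.76% were higher and 25.8% lower in the main setting. Their shares under the alternatives are not given here, so the member probe set counts show no shift particular to these genes. With the replicate number as a replicate block 9 members were higher and 25 lower, Ran being the added call. Deviations of same-numbered arrays correlated at 0.0071, which does not tell whether those arrays were cultured or processed together. When 1 array is left out, the lone array is assumed to vary like the other group. Signals near the filter of 16.9, such as those of Nup210l, allow no statement on direction.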
